A study of Mus musculus with 5 samples.

Results

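This account concerns 38 genes of blood vessel walls in mouse knee joints lacking the small leucine-rich proteoglycans epiphycan (Epyc) and biglycan (Bgn): 26 endothelial genes, among them 3 vascular growth factors, and 12 mural genes, which mark the pericytes and smooth muscle cells that wrap vessels. They were taken by gene symbol from a list, and of a gene's probe sets the one with the highest mean over the 5 arrays stood for it. All 38 had a probe set in both deposited tables, out of 12393 genes measured. Whole tibio-femoral joints of male mice of a C57/Bl6:129 hybrid background, 3 months old, were compared between wildtype animals and Epiphycan and Biglycan double-null animals. Each of the 5 Affymetrix arrays held RNA pooled from 3 mice (6 joints), giving 2 wildtype and 3 double-null pools. The sources used here do not say how the alleles were made or whether the wildtype animals were littermates. The values came as 2 tables, called type A (wildtype pool 2 and double-null pool 3) and type B (wildtype pool 1 and double-null pools 1 and 2). Array type below means only which table held an array. No source used here says whether the arrays or batches behind the tables differed.

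Endothelial cells line vessels and respond to vascular endothelial growth factors (VEGFs) and angiopoietins through receptor tyrosine kinases on their surface, and their gene programme is driven in large part by ETS family transcription factors such as Erg. Mural cells are recruited to new vessels by platelet-derived growth factor acting on Pdgfrb, and smooth muscle cells switch on contractile proteins through serum response factor (Srf), which binds CArG boxes together with its myocardin-related coactivators. In a joint, vessels run through marrow, bone, synovium, muscle and fat, while mature articular cartilage has none. Biglycan is a proteoglycan of connective tissue matrix, and epiphycan is one of epiphyseal cartilage.

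Promoter windows of 3 members are printed because they hold letters of the ETS and CArG motifs just named. They are the 250 bases upstream of the start in RefSeq's GRCm38.p6 table, which held windows for 24 of the 38 genes. Capitals in the first and second mark the ETS core AGGAAG on either strand, and capitals in the third mark CArG boxes with at most 1 G or C in the core of 6.
Emcn chr3:137340828-137341077 (plus strand): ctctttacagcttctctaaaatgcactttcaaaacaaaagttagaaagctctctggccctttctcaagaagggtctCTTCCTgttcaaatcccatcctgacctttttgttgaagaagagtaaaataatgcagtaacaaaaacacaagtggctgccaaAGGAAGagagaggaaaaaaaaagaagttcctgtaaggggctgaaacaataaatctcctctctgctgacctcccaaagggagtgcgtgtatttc
Robo4 chr9:37401722-37401971 (plus strand): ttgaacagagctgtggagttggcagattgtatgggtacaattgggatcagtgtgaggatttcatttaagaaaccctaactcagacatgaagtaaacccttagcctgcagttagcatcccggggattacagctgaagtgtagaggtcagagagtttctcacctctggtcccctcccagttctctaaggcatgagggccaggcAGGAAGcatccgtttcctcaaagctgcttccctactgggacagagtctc
Acta2 chr19:34255374-34255623 (minus strand): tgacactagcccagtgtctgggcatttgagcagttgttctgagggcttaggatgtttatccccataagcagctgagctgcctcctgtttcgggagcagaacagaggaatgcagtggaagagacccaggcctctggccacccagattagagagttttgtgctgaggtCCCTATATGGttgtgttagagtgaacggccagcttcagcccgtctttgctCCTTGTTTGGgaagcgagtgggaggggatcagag

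The ETS core lay in 9 of 21 endothelial windows (42.9%), from 8 genes, in 0 of 9 mural windows, and in 29.5% of the 32851 windows of all genes. The relaxed CArG box lay in 1 of 9 mural windows, that of Acta2, in 2 of 21 endothelial windows and in 8.59% of all windows. The strict box, with only A and T in its core, was in 1.47% of all windows and in 0 of the members' windows. These matches describe letters and were not tested.

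Signals were MAS5 intensities on a linear scale. Each difference is a log2 fold change of double-null over wildtype, fitted with a term for array type to quantile-normalised log2(signal + 32), a scale on which changes of dim genes come out too small. Pool signals are given in the order of the pool numbers, wildtype first. The knockout check held on every pool: the least reduced Bgn probe set read 3413 and 2003 in the wildtype pools and 204, 224 and 206 in the double-null pools, and Epyc read 91.2 and 78.8 against 10.8, 3.38 and 1.29. Background was judged from 27 Bacillus control probe sets, whose highest signal on any array was 63.5. Markers of the labelled tissue were well above it, with a mean signal of 5666 for the cartilage collagen gene Col2a1 and 883 for the aggrecan gene Acan. Of the members 30 lay above the intensity filter (a mean signal of 100.4) and were tested: 20 endothelial and 10 mural. The other 8 were Tie1, Flt1, Sox17, Erg, Vegfc, Angpt2, Myh11 and Cnn1. Of these Erg and Cnn1 lay at or below the highest control of the same array on all 5 arrays, so whole joints gave no readable level of them.

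No endothelial gene passed the test between the genotypes, and the fitted differences of those above the filter were small. Of the 20 tested, 0 passed the threshold (limma, Benjamini-Hochberg adjusted p under 0.05) and 0 had an unadjusted p under 0.05, while over all 7436 genes tested 0.134% passed and 6.2% had such an unadjusted p. The median log2 fold change was 0.0099, beside -0.011 for all genes tested, with 13 positive and 7 negative values between -0.31 (Nos3) and 0.20 (Robo4). Of these values 19 were smaller than 0.2 in either direction, as were 5009 of all 7436 genes tested. Over all genes tested 3555 values were positive and 3881 negative. In 0 of the 20 genes did the groups separate, against 19.7% of all genes whose groups did not overlap. In bulk tissue, fewer cells of a type and less RNA per cell cannot be told apart. The 95% intervals stayed inside -0.78 to 0.65 for all 20.

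**Figure D1:**
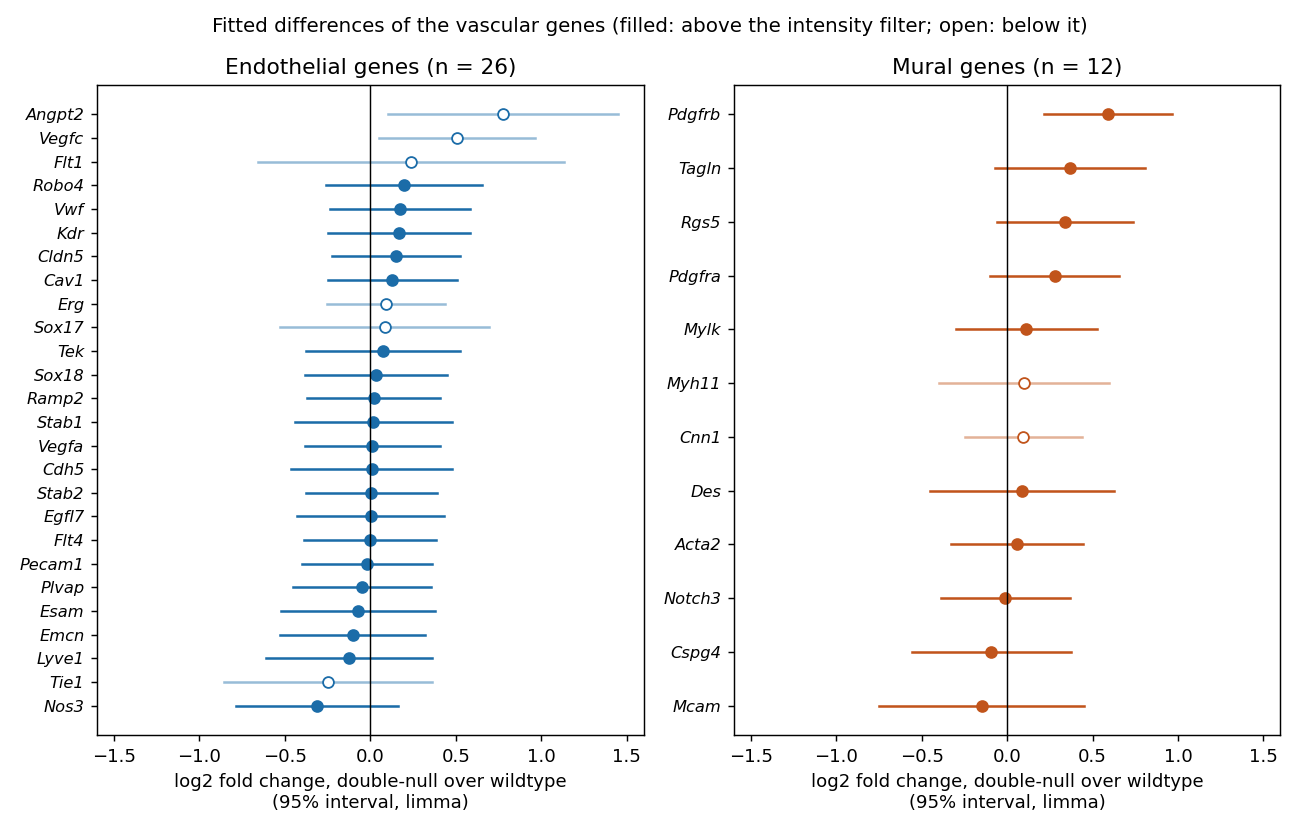
Log2 fold changes, double-null over wildtype, of the 26 endothelial and 12 mural genes on the horizontal axes, with limma 95% intervals as lines; filled points lay above the intensity filter and open points below it. Endothelial points above the filter lie between -0.31 and 0.20, and Pdgfrb at 0.59 is the only filled point whose interval leaves out 0.

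Among the junction and surface proteins, Pecam1, an adhesion molecule of endothelial contacts, read 224 and 198 in the wildtype pools and 202, 203 and 210 in the double-null pools. All 3 double-null values lay between the wildtype values (log2 fold change -0.018, 95% interval -0.40 to 0.36). Cdh5, the cadherin of endothelial adherens junctions, read 205 and 135 against 177, 138 and 188, again inside the wildtype range. Emcn, the sialomucin endomucin of capillaries and veins, read 176 and 134 against 132, 136 and 148 (-0.10), and the groups overlapped. Esam, an adhesion molecule of tight junctions, was at -0.073, and Cldn5, a claudin that seals them, at 0.15. Plvap, which forms the diaphragms of fenestrated endothelium, was at -0.051.

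Among the receptors, Kdr, the main signalling receptor for VEGF, read 152 and 253 in the wildtype pools and 123, 166 and 337 in the double-null pools. The 2 type A pools were the highest within their genotypes, and the groups overlapped widely (0.17, 95% interval -0.25 to 0.58). Robo4, a Roundabout receptor of endothelium, read 141 and 109 against 119, 187 and 138 (0.20), with 1 double-null pool above both wildtype pools. Tek, the receptor for angiopoietins, was at 0.074, and its signals stayed between 102 and 119 in all 5 pools. Its relative Tie1 was below the filter, at 89.8 and 65.2 against 48.7, 39.5 and 81.8 (-0.25, 95% interval -0.85 to 0.36). Flt1, a VEGF receptor that also acts as a decoy, was below the filter too. It read 36.0 and 94.8 against 20.2, 104 and 100.01, with a wide scatter in both groups. This probe set was above the highest control of its own array on 3 of 5 arrays only. Other Flt1 probe sets were at 0.23 and -0.014. Ramp2, a partner of the adrenomedullin receptor, was at 0.020.

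Among the effectors, Nos3, the endothelial nitric oxide synthase, had the lowest value. It read 163 and 104 in the wildtype pools and 84.6, 106 and 104 in the double-null pools, so wildtype pool 1 alone stood high and wildtype pool 2 lay among the double-null pools (-0.31, 95% interval -0.78 to 0.16, unadjusted p = 0.17). Vwf, the clotting factor stored in endothelial granules and platelets, read 472 and 390 against 589, 663 and 361 (0.17), with double-null pool 3 below both wildtype pools and the other two above. Cav1, the coat protein of caveolae, was at 0.13, the transcription factor Sox18 at 0.035 and the secreted Egfl7 at 0.0033. The 3 other Egfl7 probe sets were at 0.12, 0.34 and 0.027, each with overlapping groups. Sox17, a factor of arterial endothelium, lay below the filter at 0.083.

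The members that mark lymphatic vessels or marrow and liver sinusoids did not stand apart either. Flt4, the receptor for VEGF-C, read 253 and 195 against 213, 256 and 208. Stab2, a scavenger receptor of sinusoids, read 230 and 207 against 198, 217 and 231. Stab1, its relative on sinusoids and macrophages, was at 0.018. The hyaluronan receptor Lyve1 read 128.04 and 155 against 95.7, 160 and 116 (-0.12), so its lowest and highest signals were both in the double-null group. A second Lyve1 probe set below the filter had the opposite sign, at 74.0 and 83.6 against 155, 92.7 and 74.7 (0.28). Groups overlapped in all 4 genes.

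Of the growth factors, Vegfa, the principal VEGF, read 192 and 168 in wildtype and 191, 173 and 177 in double-null pools (0.012, 95% interval -0.38 to 0.41). A second Vegfa probe set above the filter was at -0.54, with 187 and 76.1 against 129, 68.9 and 59.0, so the probe sets differed in sign while both had overlapping groups. Vegfc, the ligand of Flt4, and Angpt2, the angiopoietin released by activated endothelium, were dim and lay below the filter, yet each double-null pool was above both wildtype pools. Vegfc read 32.2 and 40.7 against 56.0, 58.5 and 68.5, and Angpt2 read 47.7 and 9.98 against 60.9, 58.1 and 84.3. In a fit without the filter their log2 fold changes were 0.51 ± 0.19 and 0.78 ± 0.28 (SE), with unadjusted p = 0.033 and 0.030 and limma adjusted p = 0.85 and 0.83. Both were above the highest control of their own array on 3 of 5 arrays only. With 1 in place of 32 added to the signals they were at 0.85 and 1.49. Over all 16 alternatives Vegfc ran from 0.23 to 0.85 and Angpt2 from 0.30 to 1.49. Angpt2 was at 0.30 without wildtype pool 2 and at 1.403 without wildtype pool 1, each a difference within a single array type.

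**Figure D2:**
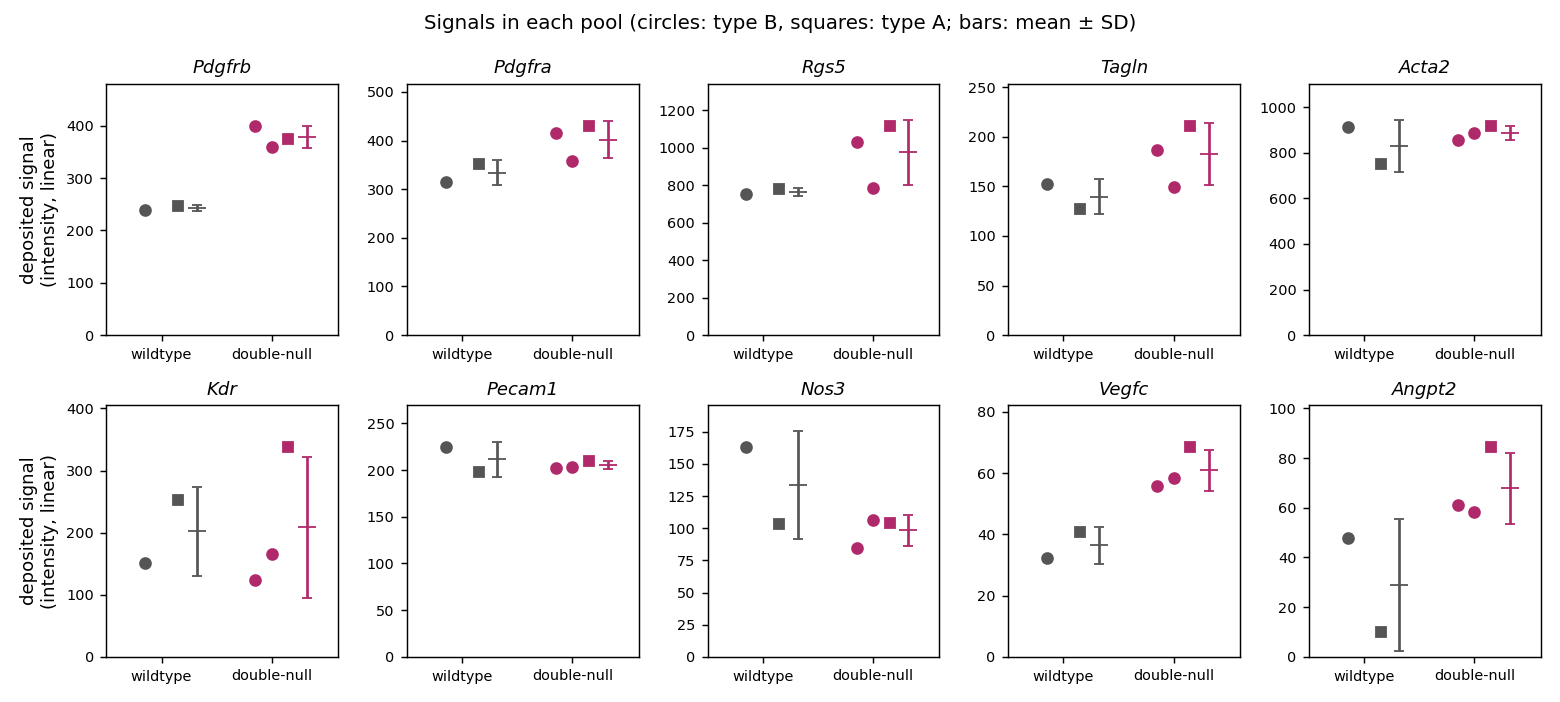
Deposited signals (linear intensity, vertical axes from 0) of 10 members in each pool, wildtype grey and double-null magenta, circles for array type B and squares for type A, with mean ± SD beside the points. Pdgfrb, Pdgfra, Vegfc and Angpt2 have all double-null pools above both wildtype pools on this and the normalised scale, while Kdr, Pecam1 and Nos3 overlap.

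Mural genes had a slightly higher median, 0.10 over the 10 tested, with 7 positive and 3 negative values, and its highest values belonged to Pdgfrb, Tagln, Rgs5 and Pdgfra. Of the 10, 0 passed the threshold over all genes and 1, Pdgfrb, had an unadjusted p under 0.05, beside 6.2% of all genes tested. On the normalised scale 3 had every double-null pool above both wildtype pools, beside 9.47% of all genes, and 0 had every pool below, beside 10.2%. In each of the 16 alternative settings 0 of the members tested passed in limma, with 0 to 3 at an unadjusted p under 0.05. Those settings tested 30 members, except for 17 with a filter at the 60th percentile and 38 without a filter.

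Pdgfrb, the receptor through which platelet-derived growth factor recruits pericytes and which fibroblasts also carry, read 239 and 248 in the wildtype pools and 400, 360 and 375 in the double-null pools. The groups did not overlap, at 243 ± 6.16 (SD, n = 2) and 379 ± 20.4 (n = 3), and an SD from 2 pools is a poor measure of spread. The log2 fold change was 0.59 ± 0.17 (SE; 95% interval 0.21 to 0.96), with unadjusted p = 0.0051 and limma adjusted p = 0.38, so it missed the threshold. Type A gave 0.56 and type B gave 0.61. Adjusted p ran from 0.32 to 0.999 over the 16 alternatives, and the unadjusted p was under 0.05 in 14 of them. A second, dim Pdgfrb probe set read 70.3 and 63.8 against 77.0, 32.6 and 85.8 (0.0063), so the higher reading rests on the brighter probe set.

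Pdgfra, the related receptor that marks fibroblasts and mesenchymal stroma more than vessel walls, read 315 and 352 against 416, 359 and 431. Every double-null pool lay above the wildtype pools, double-null pool 2 by a narrow margin (0.28, 95% interval -0.10 to 0.66, limma adjusted p = 0.89). A second Pdgfra probe set, just under the filter, read 111 and 100.01 against 74.4, 101.4 and 108 (-0.071), with overlapping groups and the opposite sign. Rgs5, a regulator of G protein signalling enriched in pericytes, read 750 and 778 against 1028, 783 and 1117. Pools 1 and 3 of the double-null group were high, while pool 2 exceeded wildtype pool 2 by a little in deposited signal and overlapped on the normalised scale (0.34, 95% interval -0.061 to 0.74, limma adjusted p = 0.86). Its 3 other probe sets, all above the filter, were also positive, at 0.69, 0.31 and 0.10. Tagln, the actin-binding protein transgelin of smooth muscle and myofibroblasts, read 152 and 127 against 187, 150 and 211 (0.37, 95% interval -0.074 to 0.80). Its groups separated on the normalised scale but not in deposited signals, where double-null pool 2 lay just under wildtype pool 1.

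The other pericyte genes had values below 0 on their brightest probe sets. Cspg4, the NG2 proteoglycan of pericytes, read 304 and 219 against 180, 274 and 266 (-0.092), with the groups overlapping. A second Cspg4 probe set, with a mean signal of 57.6, below the filter, read 26.4 and 12.5 against 71.6, 120 and 57.2 (1.08). Its groups were apart, and it was above the highest control of its own array on 3 of 5 arrays. Its unadjusted p of 0.0027 was the smallest of any member probe set, with a limma adjusted p of 0.57 over all 22626 probe sets fitted. The 2 probe sets of this gene opposed each other, and with probe sets averaged Cspg4 was at 0.50 (limma adjusted p = 0.66). Mcam, an adhesion molecule of pericytes and endothelium, read 147 and 78.1 against 87.1, 68.3 and 126 (-0.15). On type A alone it was at 0.49, and on type B at -0.63. Notch3, the Notch receptor of arterial smooth muscle, read 442 and 389 against 450, 396 and 406 (-0.011).

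Contractile genes of smooth muscle other than Tagln had fitted differences of 0.11 or less and did not pass. Acta2, the smooth muscle actin whose promoter with its CArG boxes is printed above, read 912 and 750 in wildtype pools and 855, 888 and 919 in double-null pools (0.060, 95% interval -0.33 to 0.45). Mylk, the myosin light chain kinase, read 377 and 430 against 512, 368 and 433 (0.11), and its other probe sets were at 0.12 and -0.21. Myh11, the smooth muscle myosin heavy chain, lay below the filter at 86.8 and 66.7 against 74.2, 75.5 and 91.7 (0.10). The calponin gene Cnn1 was not above background on any array. Des, the intermediate filament desmin, which skeletal muscle also makes, read 418 and 602 against 463, 262 and 866 (0.089), highest in the type A pool of each genotype. A second Des probe set above the filter was at -0.087.

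Effects on the 2 array types went different ways for many members. For endothelial genes type A gave a median of 0.14 and type B one of -0.092, where all genes tested were at -0.016 and -0.0078, and only 6 of the 20 genes had 1 sign on both types. For mural genes the medians were 0.39 and 0.054, with 5 of 10 genes of 1 sign. Of all 7436 genes tested 3513 had 1 sign on both types, so such disagreement was common over the whole table. The mural genes positive on both were Pdgfrb, Pdgfra, Rgs5, Tagln and Mylk. In the same order Esam was at 0.40 and -0.42, and Cdh5 at 0.39 and -0.28. Each type holds a single wildtype pool, so type and wildtype pool cannot be told apart in these differences.

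**Figure D3:**
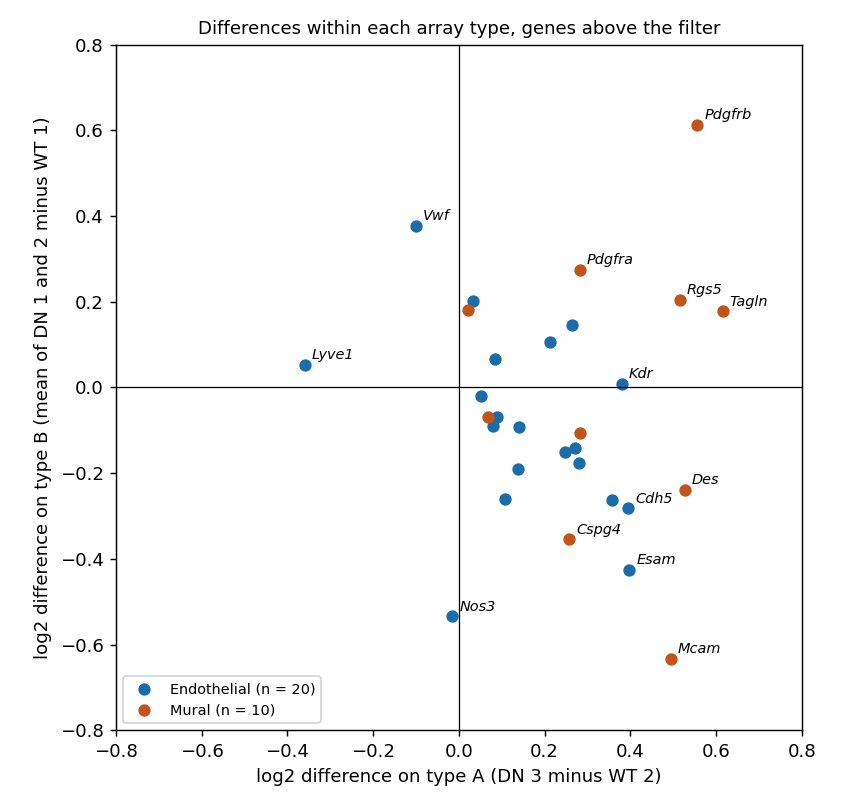
Log2 difference within array type A (double-null pool 3 minus wildtype pool 2, horizontal) against that within type B (mean of double-null pools 1 and 2 minus wildtype pool 1, vertical), for 20 endothelial (blue) and 10 mural (orange) genes. Most points fall in the lower right, positive on type A and negative on type B, while Pdgfrb (0.56 and 0.61) and Pdgfra (0.28 and 0.27) lie near the diagonal.

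The same is seen in list levels, the mean log2 deviation of a list's tested genes from their mean over the 5 pools. The endothelial level was 0.072 and -0.097 in wildtype pools 1 and 2, and -0.014, -0.017 and 0.056 in double-null pools 1 to 3, so the wildtype pools spanned the whole range. The mural level was -0.038 and -0.13 in the wildtype pools and 0.073, -0.14 and 0.23 in the double-null pools, with the lowest and the highest values both in the double-null group.

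Markers of other cells that share these genes moved in their own ways. The fibroblast and tendon list, relevant to Pdgfra and Pdgfrb, had levels of -0.43 and -0.36 in the wildtype pools and 0.31, 0.17 and 0.31 in the double-null pools, without overlap. Of its 11 tested genes 9 were positive, 2 passed (Col3a1 and Lum) and the median was 0.998. The 2 negative genes, Col1a1 at -0.039 and Col1a2 at -0.063, were the brightest of the list and had overlapping groups. The rise was therefore not shared by all markers of the list. The summed signal of its 12 genes ran from 33132 to 51221 in wildtype and from 44425 to 55808 in double-null pools, and the tendon factor Scx lay below the filter. The brightest probe sets of Pdgfrb and Pdgfra and this list had their double-null pools above both wildtype pools, and the list's part in the receptor readings was not tested. The skeletal muscle list, relevant to Des, had levels of 0.60 and 0.62 in the type A pools (wildtype 2 and double-null 3) and of -0.23, -0.22 and -0.76 in wildtype pool 1 and double-null pools 1 and 2. Its summed signal over 12 genes ran from 59315 to 72773 in wildtype and from 36004 to 87996 in double-null pools. Des and Kdr were likewise highest in those type A pools, as was a second Mylk probe set, at 251 and 230 there against 61.3, 96.2 and 59.0 elsewhere. The part of muscle content in these readings was not tested.

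**Figure D4:**
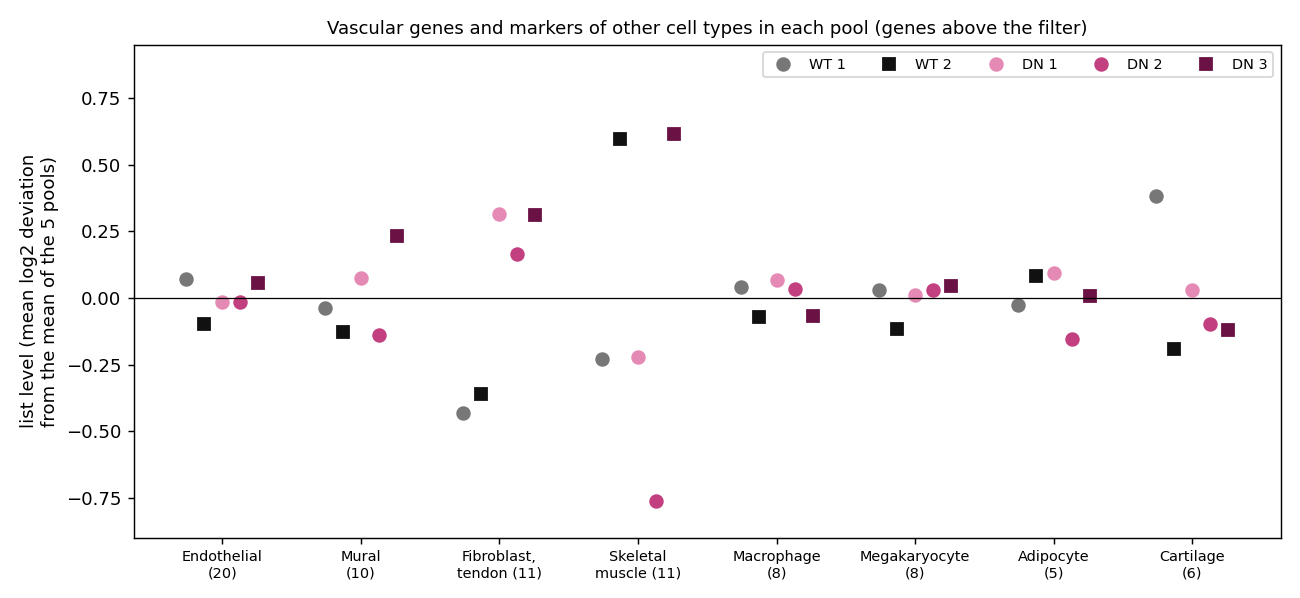
Level of each gene list (mean log2 deviation from the mean of the 5 pools, vertical axis) in each pool, with the number of genes above the filter in parentheses, wildtype pools grey and black, double-null pools in pinks, squares for array type A. In mean level, fibroblast and tendon genes separate the genotypes and skeletal muscle genes separate the array types (0.60 and 0.62 on type A). Endothelial levels stay between -0.097 and 0.072.

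Lists for the other cells that carry members had medians from -0.24 to 0.090. Megakaryocytes and platelets carry Vwf and Pecam1, and their list had a median of 0.090 over 8 genes, with summed signals of 12954 to 13315 in wildtype and 13275 to 14991 in double-null pools. Macrophages carry Stab1 and Lyve1, and that list had a median of -0.098 over 8 tested genes, with summed signals of 14623 to 20594 and 14659 to 19533. The adipocyte list, for Cav1, had a median of 0.036 over 5 genes, with summed signals of 5733 to 6118 and 4969 to 6273 and the leptin gene Lep not above background on any array. For Vegfa, the list of genes induced by low oxygen had a median of 0.029 over 10 genes, with summed signals of 10855 to 11255 and 10260 to 11255, and the cartilage list had a median of -0.24 over 6 tested genes, with 6154 to 13667 and 6993 to 8059. In these 5 lists 0 genes passed the threshold in limma. An unadjusted p under 0.05 was found for 0 megakaryocyte, 1 macrophage, 1 adipocyte, 1 low-oxygen and 2 cartilage genes, beside 6.2% of all genes tested. Medians of the marrow and bone lists were 0.015 for erythroid, -0.077 for neutrophil and -0.022 for osteoblast and osteocyte genes.

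Further genes of the vascular pathways gave 0 limma calls over all genes in either direction. An unadjusted p under 0.05 was found for 1 gene of the endothelial, 2 of the mural and 0 of the ligand list, beside 6.2% of all genes. Of 23 tested endothelial genes outside the members, 14 were positive and 9 negative with a median of 0.067. Groups were apart in 4 of the 23, which is not above the 19.7% of all genes tested. Lmo2, Icam1 and Thbd were higher and Icam2 lower in the double-null pools. Eng, the TGF-beta coreceptor endoglin, had the smallest p (558 and 248 against 250, 383 and 218; -0.52, limma adjusted p = 0.75), and its groups overlapped. This is the brighter of 2 Eng probe sets, and over the 16 alternatives, which include averaged probe sets, Eng ran from -0.78 to -0.016. The adhesion gene Icam2 read 145 and 182 against 113, 117 and 94.5 (-0.44, limma adjusted p = 0.83). Lmo2, a haematopoietic and endothelial transcription partner, read 1306 and 1332 against 2004, 1614 and 1433 (0.27, limma adjusted p = 0.89), and Cd36, a fatty acid receptor of capillaries, was at 0.31 with overlapping groups. Of 8 tested vascular ligands 2 were positive and 6 negative, with a median of -0.063. Those with the smallest p were Pdgfc at 0.35, Vegfb at -0.27, Pdgfb at -0.17, a ligand of Pdgfrb, and Angptl4 at 0.13, all with overlapping groups.

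Of 18 tested genes on a further list made for mural cells, 8 were positive and 10 negative, with a median of -0.075. The list also holds regulators such as Srf and Mrtfa and genes that other cells make, such as Tpm1. Its counts and median are therefore not a reading of mural cells alone. Groups were apart in 7 of the 18, beside 19.7% of all genes tested. Cald1, Nr2f2 and Myl9 were higher and Srf, Cspg5, Cnn2 and Kcnj8 lower in the double-null pools. The 4 genes with the smallest p, described next, all had negative values. Srf, the factor that binds CArG boxes, read 304 and 256 in the wildtype pools and 194, 198 and 130 in the double-null pools, with the groups apart. Its log2 fold change was -0.67 (95% interval -1.06 to -0.27; -0.87 on type A, -0.52 on type B), with unadjusted p = 0.0032 and limma adjusted p = 0.31. This is the brighter of 2 Srf probe sets, and over the 16 alternatives Srf ran from -0.87 to -0.40. Its coactivator gene Mrtfa was at -0.45 with overlapping groups and opposite signs on types A and B, 0.13 and -0.89. Cspg5 read 284 and 217 against 181, 167 and 187 (-0.41, limma adjusted p = 0.79), and the tropomyosin gene Tpm1, made in skeletal as well as smooth muscle, was at -0.29 with overlapping groups. Next by p was Cald1, the actin-binding caldesmon gene, which is named here after its values were seen. It read 602 and 513 against 826, 695 and 660 (0.31, limma adjusted p = 0.86), with positive values on both types. Acta2 and Tagln, textbook targets of Srf, were at 0.060 and 0.37, and whether they move with Srf was not tested.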

How the data were processed

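Values were signal intensities per probe set, deposited on a linear scale; the submitters' processing notes name MAS5. The sources used here give no version, scaling target or detection calls. Each array's 2% trimmed mean was close to 250.1, and signals ran from 0.0423 to 26173. The 2 tables held the same 22690 probe sets, of which 20393 had 1 gene symbol, 691 several and 1606 none, and 20364 of the symbols were brought up to date by matching Entrez identifiers with RefSeq's GRCm38.p6 table. The tables belong to 2 platform records, and no source used here says whether arrays or batches differed.

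Signals had 32 added, were put on the log2 scale and then quantile normalised over the arrays. Of 12393 genes, the 7436 with a mean signal above the 40th percentile were fitted with limma 3.58.1 in R 4.3.3 (genotype plus array type, two-sided, with an intensity trend; 2 degrees of freedom were residual and 9.64 prior). P-values were adjusted by Benjamini-Hochberg over all of them, and 10 genes passed 0.05. Exact permutation of 2 against 3 pools could not go below p = 0.1. On simulated data (7436 genes, 10 draws) the limma fit found 96.1% of the genes given a log2 change of 1 and 100% of those given 2. Each draw had independent normal noise and 100 changed genes of each size, which makes the adjusted threshold easier to pass than here. These shares are therefore not the power in these data. In the data Tnmd at 1.03 missed the threshold (limma adjusted p = 0.0998) and Fn1 at 0.83 passed it. Gene neighbourhood was taken from the same gene table, and 0 members started within 10 Mb of Epyc or Bgn. Of the 38 members 22 had 1 probe set. Of the 16 with several, 7 had 1 sign over all their probe sets and 9 did not. Of the 6 with several above the filter, 4 had 1 sign over those and 2 (Des and Vegfa) did not. Pool values were given for members with the 3 highest and 3 lowest values of either set or with groups apart, and further members for their roles. Members and lists were chosen with earlier results of these data known.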

Additional observations from a re-analysis of the deposited data

How the results depend on the processing

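Of the members tested (38 without a filter, 17 with a filter at the 60th percentile and 30 in the other settings) 0 passed under any of the 16 alternatives (limma; 0 to 3 at an unadjusted p under 0.05). Of all 38 fitted members 11 kept 1 sign throughout, and 89 of 608 fitted values changed sign without passing. The number of genes passing over the whole table, 10, was 6 with the deposited scaling, 2 without the filter, 5 without the array-type term and 2 on type B alone. Nothing in the labels says that the replicate numbers pair pools. Deviations of same-numbered pools correlated at 0.0033 and -0.18, and a replicate block in place of the type term left 2 genes. Leaving out single pools gave 2 to 54 genes. There were 2 when either wildtype pool or double-null pool 3 was dropped, 21 when double-null pool 1 was and 54 when double-null pool 2 was. The endothelial median was -0.092 on type B alone and ran from -0.092 (without wildtype pool 2 or double-null pool 3) to 0.14 (without wildtype pool 1). The mural median ran from 0.054 to 0.39, with 0.39 when wildtype pool 1 and 0.27 when double-null pool 2 was dropped. These single-pool results rest on 1 residual degree of freedom. Dropping wildtype pool 2 or double-null pool 3 leaves only the difference within type B. Dropping wildtype pool 1 leaves only that within type A, 1 pool against 1. These values repeat the within-type differences above and are not independent of them. The cause of the changes was not tested. Signal over background limits Erg, Cnn1, Vegfc, Angpt2 and Flt1.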
